A study of Mus musculus with 16 samples.

Results

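The subunits of the mitochondrial respiratory chain were described at the level of messenger RNA in mouse melanomas and melanocytes. They were taken as the genes whose only symbol in the array's probe annotation starts with Ndufa, Ndufb, Ndufc, Ndufs or Ndufv and a digit, with Uqcr, Cox4 to Cox8 or Atp5, or is Sdha, Sdhb, Sdhc or Sdhd. This gave 78 of the 12393 genes on the array, with 33 in complex I, 4 in complex II, 8 in complex III, 16 in complex IV and 17 in complex V. Each gene was read from 1 probe set, that with the highest mean over the 16 arrays. The members covered 147 probe sets, and 43 of the 78 genes had more than 1.

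Cutaneous melanomas of the iMet mouse, of genotype Tyr-rtTA;Tet-Met;Ink4a/Arf-/-, gave 6 arrays. Melanomas of the iHRAS* mouse, of genotype Tyr-rtTA;Tet-HRASV12G;Ink4a/Arf-/-, gave 6 arrays, and melanocytes with no disease gave 4. In both tumour models the tyrosinase promoter drives the tetracycline-controlled activator rtTA, which switches on a Met or an activated HRAS transgene, and both carry the Ink4a/Arf deletion. The genotype of the melanocytes, the age of the animals and the time on inducer are not given in the sources used here. The labels of the tumours speak of isolated melanoma cells and the design text of RNA from melanomas, and no label ties samples to animals. The p-values therefore measure the spread between these samples, which may be technical.

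The respiratory chain passes electrons from NADH and succinate to oxygen in the inner mitochondrial membrane. Complex I (NADH dehydrogenase) and complex II (succinate dehydrogenase) feed ubiquinone, complex III passes the electrons to cytochrome c, and complex IV (cytochrome c oxidase) reduces oxygen. Complexes I, III and IV pump protons, and complex V (ATP synthase) uses the gradient to make ATP. Most subunits are encoded in the nucleus and a few in mitochondrial DNA. Some complex IV subunits have isoforms that are restricted to muscle, brown fat or testis. The array annotation held 0 genes with a symbol starting with mt-, the only form searched for the mitochondrially encoded genes. The values below concern the nuclear part of the chain.

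Values are quantile-normalized log2 signals, on which a difference of 1 is a doubling. Differences were tested with limma (two-sided) over all genes whose signal passed log2 6.21, the 40th percentile of all values, on enough arrays, and genes with an adjusted p under 0.05 (Benjamini-Hochberg) count as called. Of the 78 members, 73 were tested in all 3 comparisons, and 72 lay above that level on all 16 arrays. The deposited array medians ran from 6.56 to 7.28. All values are signals of probe sets, so levels of different genes were not compared.

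Several marker lists differed between the groups. The mean of 8 macrophage markers was 10.2 to 11.1 on iMet arrays and 8.64 to 10.5 on iHRAS* arrays, against 4.47 to 5.07 on melanocyte arrays. The mean of 7 endothelial markers was 7.82 to 9.30 on iMet arrays and 6.76 to 7.81 on iHRAS* arrays, against 4.04 to 5.20 on melanocyte arrays. The mean of 7 fibroblast markers was 12.4 to 13.2 on iMet arrays and 12.4 to 12.9 on iHRAS* arrays, against 8.75 to 11.6 on melanocyte arrays. Of the defining melanocyte genes, Dct, Tyr, Tyrp1, Mitf and Kit lay below log2 6.21 on all 4 melanocyte arrays, whereas Sox10 was at 9.04 to 10.4 and Pmel at 6.43 to 7.05 there. The mean of 11 keratinocyte markers was 4.60 to 9.19 on iMet arrays and 8.62 to 10.8 on iHRAS* arrays, against 6.43 to 9.17 on melanocyte arrays. Members of that list differed on the melanocyte arrays. Krt5 was at 11.1 to 13.7 and Krt14 at 11.5 to 13.5 there, whereas Krt1 was at 2.11 to 5.83, Cdh1 at 2.26 to 5.30 and Epcam at 1.37 to 1.88. In bulk samples, a different share of a cell type and a different amount of RNA per cell cannot be told apart.

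Against melanocytes, part of the subunits of complex I fell in each tumour model. In iMet tumours 14 of 33 complex I genes fell and 0 rose, with a median difference of -0.35 on the log2 scale, and 27 differences were negative and 6 positive, up to 0.49. In iHRAS* tumours 14 of 33 also fell and 0 rose, with a median of -0.35, and all 33 differences were negative. At an unadjusted limma p under 0.05, 1 complex I gene was higher and 19 lower in iMet tumours, and 0 were higher and 20 lower in iHRAS* tumours. The share of all genes at that unadjusted level was not counted. The shares that follow are for the stricter adjusted calls, so they cannot be set beside the unadjusted counts. Over all genes tested, 18.7% were called lower and 16.4% higher in iMet tumours against melanocytes (35.1% in all), with a median of -0.08. In iHRAS* tumours against melanocytes 21.3% were called lower and 18.1% higher (39.3% in all), with a median of -0.09. Both comparisons use the same 4 melanocyte arrays.

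Over all members, 22 of 74 tested genes fell and 2 were called higher in iMet tumours against melanocytes, with a median difference of -0.20. Of the higher calls, Cox6b2 lay below log2 6.21 on average in both groups. In iHRAS* tumours against melanocytes 24 of 74 fell and 1 was called higher, with a median of -0.29. The higher call was again Cox6b2, which lay below log2 6.21 on all 4 melanocyte arrays. The group ranges lay apart for 17 lower and 1 higher member in iMet tumours, against 15% and 12.6% of all genes, and for 25 lower and 1 higher member in iHRAS* tumours, against 14.1% and 11.2%. Outside complex I, 8 of 41 tested members fell and 2 were called higher in iMet tumours, and 10 of 41 fell and 1 was called higher in iHRAS* tumours. With arrays centred on their medians, 31 members fell and 1 was called higher in iMet tumours, beside 26.7% of all genes lower and 13.6% higher and a median of all genes of -0.22. Outside complex I, the shares of lower calls, 19.5% and 24.4%, lie near the 18.7% and 21.3% of all genes, and the complex I share of 42.4% in each model lies above them. No test was made over the members as a set. The macrophage, endothelial and fibroblast marker levels above moved with the same contrasts. Of 11 keratinocyte markers, 6 fell and 3 rose in iMet tumours and 0 fell and 4 rose in iHRAS* tumours against melanocytes. The part of these differences in the result was not tested.

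**Figure D1:**
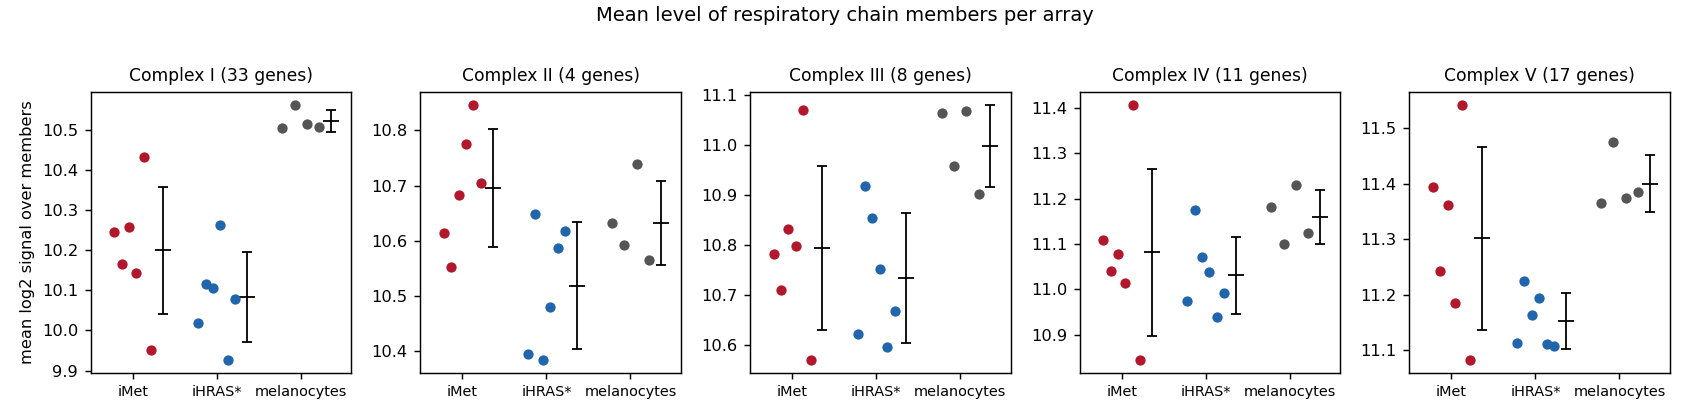
Mean log2 signal over the tested members of each complex on each array (vertical axes, each with its own range), for 6 iMet, 6 iHRAS* and 4 melanocyte arrays; points are arrays, and bars beside them give the mean and SD. For complex I, all tumour arrays lie below the 4 melanocyte arrays, which sit between 10.51 and 10.56.

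The mean log2 signal of the 33 complex I genes was 10.20 ± 0.16 on iMet arrays (SD, n = 6) and 10.08 ± 0.11 on iHRAS* arrays (SD, n = 6), against 10.52 ± 0.03 on melanocyte arrays (SD, n = 4). The highest tumour array, iMet tumour 5, reached 10.43. No tumour array reached the lowest melanocyte array. For complex V the means were 11.30 ± 0.16 on iMet arrays and 11.15 ± 0.05 on iHRAS* arrays, against 11.40 ± 0.05 on melanocyte arrays (SD, same n). There the iMet arrays, from 11.08 to 11.54, overlapped the melanocyte arrays, from 11.37 to 11.48.

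The count of 22 lower members in iMet tumours depended on the melanocyte arrays. It was 13 without melanocyte array 2, and between 15 and 26 when any other single array was left out. The share of all genes called lower was 14.3% without melanocyte array 2, in place of 18.7%. It was 14% to 20.2% without any other single array. Melanocyte arrays 1 and 3 had fibroblast marker means of 10.9 and 11.6, and arrays 2 and 4 had 9.30 and 8.75. Without arrays 1 and 3 the count was 12, and without arrays 2 and 4 it was also 12, both chosen after the data were seen. Of all genes, 13% and 12% were called lower in these settings. The median difference of the members was -0.19 and -0.18 there. The count of 2 higher members was between 1 and 4. In iHRAS* tumours the lower count stayed between 18 and 27 when single arrays were left out, beside 16.4% to 22.7% of all genes.

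Ndufa9, an accessory subunit at the junction of the matrix and membrane arms of complex I, had the largest iMet difference in that complex. Its signal had a lowest, median and highest value of 9.46, 9.74 and 9.94 on iMet arrays. On iHRAS* arrays these were 9.09, 9.77 and 9.83, and the 4 melanocyte arrays had 10.58, 10.79, 10.35 and 10.44. All 12 tumour arrays lay below all melanocyte arrays. The difference was -0.83 ± 0.16 (SE) for iMet tumours (limma, adjusted p = 0.00104) and -0.91 ± 0.16 for iHRAS* tumours (limma, adjusted p = 0.000521), so that melanocytes had 1.78-fold and 1.87-fold higher signal.

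Ndufb6, an accessory subunit of the membrane arm, separated all 3 groups. It was at 10.24, 10.36 and 10.51 on iMet arrays and at 9.80, 10.02 and 10.06 on iHRAS* arrays (lowest, median and highest). The melanocyte arrays had 10.85, 10.96, 10.73 and 10.86. No 2 of the 3 ranges overlapped. The difference from melanocytes was -0.49 ± 0.10 in iMet tumours (adjusted p = 0.00133) and -0.88 ± 0.10 in iHRAS* tumours (adjusted p = 8.77e-06), both by limma.

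Ndufa7, an accessory subunit of the matrix arm, was at 11.04, 11.13 and 11.37 on iMet arrays and at 10.77, 10.82 and 10.99 on iHRAS* arrays. The melanocyte arrays had 11.47, 11.84, 11.74 and 11.84. It too had 3 ranges that did not overlap. The difference from melanocytes was -0.57 ± 0.11 in iMet tumours (limma, adjusted p = 0.000804) and -0.86 ± 0.11 in iHRAS* tumours (limma, adjusted p = 2.47e-05).

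Ndufb10, Ndufb7 and Ndufb2, accessory subunits of the membrane arm, were among the larger decreases in iMet tumours. Ndufb10 was at 9.11, 9.48 and 9.64 on iMet arrays and at 9.25, 9.66 and 9.98 on iHRAS* arrays, against 10.21, 10.34, 10.01 and 10.25 on melanocyte arrays. All tumour arrays lay below the melanocyte arrays, by -0.76 ± 0.14 for iMet (limma, adjusted p = 0.000976) and -0.52 ± 0.14 for iHRAS* (limma, adjusted p = 0.00992). Ndufb7 fell in iMet tumours by 0.68 and Ndufb2 by 0.67 (limma, adjusted p = 0.00698 and 0.007). In iHRAS* tumours they differed by -0.37 and -0.40 without passing the test. Ndufv3, an accessory subunit of the NADH-oxidising module, fell by 0.68 in iMet tumours (limma, adjusted p = 0.0171), and lost its call without melanocyte array 4 (adjusted p = 0.0622).

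In iHRAS* tumours the larger decreases within complex I also held Ndufb3, Ndufa5, Ndufa10, Ndufc1, Ndufb1 and Ndufs5. Ndufb3, in the membrane arm, was at 8.999, 9.29 and 9.38 on iHRAS* arrays, against 10.02, 9.999, 9.98 and 10.12 on melanocyte arrays, a difference of -0.79 ± 0.12 (limma, adjusted p = 0.00017). Ndufa5, of the matrix arm, was at 8.50, 8.77 and 9.07 on iHRAS* arrays, against 9.43, 9.63, 9.43 and 9.69 on melanocyte arrays, a difference of -0.77 ± 0.14 (limma, adjusted p = 0.0008). In both genes the iHRAS* arrays lay wholly below the melanocyte arrays. Ndufa10, Ndufb1 and Ndufc1 fell by 0.81, 0.85 and 0.71, also with ranges apart. Ndufa10 lost its call with the mean of all probe sets (limma, adjusted p = 0.113). Ndufb1 lost it without melanocyte arrays 2 and 4 (limma, adjusted p = 0.0640). Ndufs5, with the largest value of -0.91, had overlapping ranges. It lost its call when melanocyte array 1 (adjusted p = 0.0612) or array 3 (adjusted p = 0.0698) was left out.

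**Figure D2:**
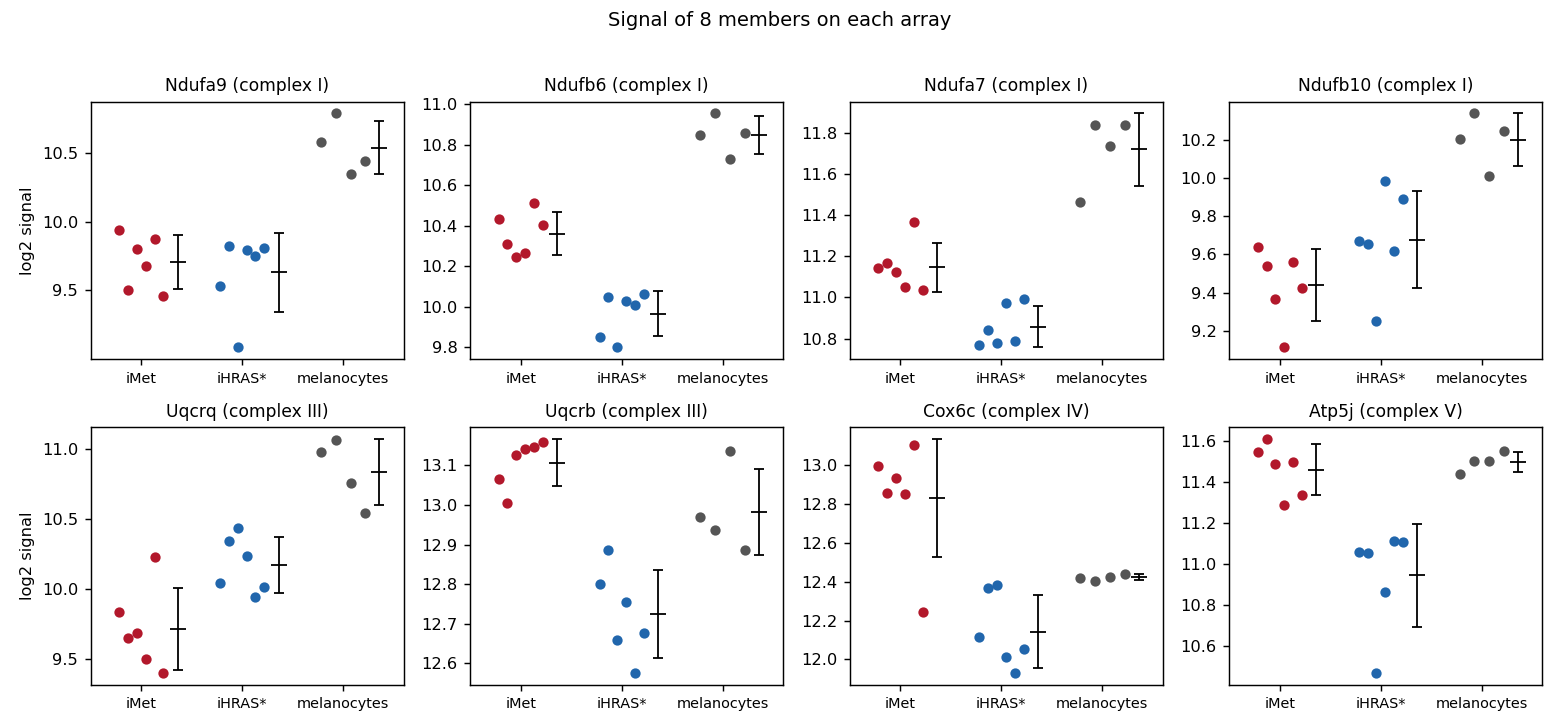
Log2 signal (vertical axes, each with its own range) of 8 members on 6 iMet, 6 iHRAS* and 4 melanocyte arrays; points are arrays, and bars beside them give the mean and SD. Ndufa9 and Ndufb10 are lower on all tumour arrays than on melanocyte arrays, Ndufb6 and Ndufa7 have 3 separate ranges, and Uqcrb and Atp5j have iMet arrays above all iHRAS* arrays.

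The core subunits of complex I hold the flavin, the iron-sulfur clusters and the ubiquinone site, and 6 of them were described here. In each tumour model 2 of the 6 (33.3%) fell against melanocytes and 0 rose, beside 18.7% of all genes called lower in iMet and 21.3% in iHRAS* tumours. The 2 core subunits were Ndufv1, which carries the flavin and the NADH site, and Ndufs3, a subunit of the ubiquinone-reducing module.

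Ndufv1 was at 10.02, 10.23 and 10.37 on iMet arrays and at 9.88, 10.18 and 10.40 on iHRAS* arrays, against 10.75, 10.94, 10.60 and 10.68 on melanocyte arrays. Both tumour ranges lay below the melanocyte range. The difference was -0.53 ± 0.12 for iMet (limma, adjusted p = 0.00281) and -0.57 ± 0.12 for iHRAS* (limma, adjusted p = 0.00142). Another of its probe sets, adjusted over probe sets, was -0.74 for iMet (adjusted p = 0.00386) and 0.03 for iHRAS* (adjusted p = 0.892) against melanocytes. That probe set was also lower in iMet than in iHRAS* tumours, by -0.77 (adjusted p = 0.00427), where the main one differed by 0.05 (adjusted p = 0.78, all by limma).

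Ndufs3 differed from melanocytes by -0.45 in iMet tumours (limma, adjusted p = 0.0135) and by -0.35 in iHRAS* tumours (limma, adjusted p = 0.0375). The iHRAS* and melanocyte ranges overlapped, and there the call was lost without melanocyte array 1, 2 or 3 or without iHRAS* array 1, 2, 5 or 6. Ndufs7, Ndufs8 and Ndufv2, which carry iron-sulfur clusters, differed by -0.23, -0.19 and -0.21 in iMet tumours and by -0.24, -0.29 and -0.29 in iHRAS* tumours, without passing the test. Ndufs1, the iron-sulfur subunit beside Ndufv1, differed by 0.12 in iMet tumours and -0.21 in iHRAS* tumours, also without passing.

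In complex II, Sdhc fell in both tumour models and the other 3 subunits did not pass the test. Sdhc, which anchors the enzyme in the membrane, was at 10.38, 10.40 and 10.54 on iMet arrays and at 9.97, 10.24 and 10.35 on iHRAS* arrays. The melanocyte arrays had 10.61, 10.83, 10.59 and 10.90, above every tumour array. The difference was -0.31 ± 0.10 for iMet (limma, adjusted p = 0.0302) and -0.53 ± 0.10 for iHRAS* (limma, adjusted p = 0.0012). The iMet call was lost without melanocyte array 2 or 4 or without iMet array 1, 2 or 3, with adjusted p up to 0.0940. Sdha, the flavoprotein, differed by 0.25 in iMet and 0.10 in iHRAS* tumours, Sdhb, the iron-sulfur protein, by 0.11 and 0.08, and Sdhd, the other anchor, by 0.21 and -0.11.

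In complex III, 2 of 8 genes (25%) fell in each comparison with melanocytes and 0 rose. Of all genes, 18.7% were called lower and 16.4% higher in iMet tumours, and 21.3% and 18.1% in iHRAS* tumours. Uqcrq, a small subunit next to cytochrome b, had the largest decrease of all members in iMet tumours. It was at 9.40, 9.67 and 10.23 on iMet arrays and at 9.94, 10.14 and 10.44 on iHRAS* arrays. The melanocyte arrays had 10.98, 11.07, 10.75 and 10.54, above all tumour arrays. The difference was -1.12 ± 0.16 for iMet (limma, adjusted p = 0.000136), which puts melanocytes 2.17-fold higher, and -0.67 ± 0.16 for iHRAS* (limma, adjusted p = 0.00524). Its other 3 probe sets were too dim to test in any comparison. The other called genes were Uqcr11 in iMet tumours (-0.53) and Uqcrb in iHRAS* tumours (-0.26), with overlapping ranges.

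In complex IV, 2 of 12 tested genes (16.7%) fell and 2 (16.7%) were called higher in iMet tumours against melanocytes. The lower were Cox5b and Cox6a1 and the higher Cox6c and Cox6b2. Of all genes, 18.7% were called lower and 16.4% higher, near these shares. In iHRAS* tumours 1 of 12 fell and 1 was called higher (8.33% each), beside 21.3% and 18.1% of all genes. Cox5b, the zinc-binding subunit, fell by 0.47 ± 0.13 (limma, adjusted p = 0.0121). Cox6a1, the widely expressed form of its subunit, fell by 0.34 ± 0.13 in iMet and by 0.40 ± 0.13 in iHRAS* tumours (limma, adjusted p = 0.0457 and 0.0201). It kept the iMet call in 8 of 30 alternative settings. Cox6c, a small accessory subunit, rose by 0.41 in iMet tumours (limma, adjusted p = 0.0466), and kept that call in 11 of 30.

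The other widely expressed forms did not pass the test in any comparison. Cox4i1 was at 12.04 ± 0.19 on iMet, 12.08 ± 0.12 on iHRAS* and 12.14 ± 0.14 on melanocyte arrays. Cox7a2, at 12.39 ± 0.25, 12.36 ± 0.17 and 12.41 ± 0.11 in the same order, differed by less than the spread within the groups. Cox6b1, Cox7a2l and Cox8a differed from melanocytes by -0.18, -0.02 and -0.26 in iMet tumours and by -0.24, -0.07 and -0.14 in iHRAS* tumours. Ndufa4, listed here with complex I by its symbol although its protein was later found in complex IV, differed by -0.50 and -0.30.

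In complex V, 3 of 17 genes (17.6%) fell in iMet tumours and 6 of 17 (35.3%) in iHRAS* tumours against melanocytes, and 0 rose. The shares of all genes called lower were 18.7% and 21.3%, and those called higher 16.4% and 18.1%. At an unadjusted limma p under 0.05, 2 were higher and 4 lower in iMet tumours, and 0 were higher and 8 lower in iHRAS* tumours. The share of all genes at that unadjusted level was not counted. Atp5g1, Atp5g2 and Atp5g3 encode the same mature subunit c of the rotor ring. Atp5g1 was at 9.99, 10.16 and 10.50 on iMet arrays and at 9.74, 9.86 and 10.37 on iHRAS* arrays, against 10.73, 10.96, 10.61 and 10.41 on melanocyte arrays. The iHRAS* arrays lay below all melanocyte arrays, and the iMet arrays overlapped them. The difference was -0.48 ± 0.15 for iMet (limma, adjusted p = 0.0219) and -0.74 ± 0.15 for iHRAS* (limma, adjusted p = 0.00146). The iMet call was lost without melanocyte array 1 (adjusted p = 0.0566) or 2 (adjusted p = 0.0828).

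Atp5g2 differed from melanocytes by 0.42 in iMet and -0.27 in iHRAS* tumours, and Atp5g3 by -0.21 and -0.12, without passing the test. Atp5j, a subunit of the stator stalk, was at 10.47, 11.05 and 11.11 on iHRAS* arrays, below the melanocyte values of 11.44, 11.50, 11.50 and 11.55. The difference was -0.55 ± 0.13 (limma, adjusted p = 0.00336). In iMet tumours Atp5j, at 11.29, 11.49 and 11.61, differed from melanocytes by -0.04 (adjusted p = 0.839). Atp5md, a small membrane subunit, fell by 0.43 in iMet and 0.64 in iHRAS* tumours (limma, adjusted p = 0.0302 and 0.00282). Atp5o, of the stator stalk, fell by 0.30 and 0.37. Atp5c1, the central stalk, fell by 0.36 in iHRAS* tumours, but its other probe set was higher there by 0.68 (adjusted p = 0.0304 over probe sets).

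**Figure D3:**
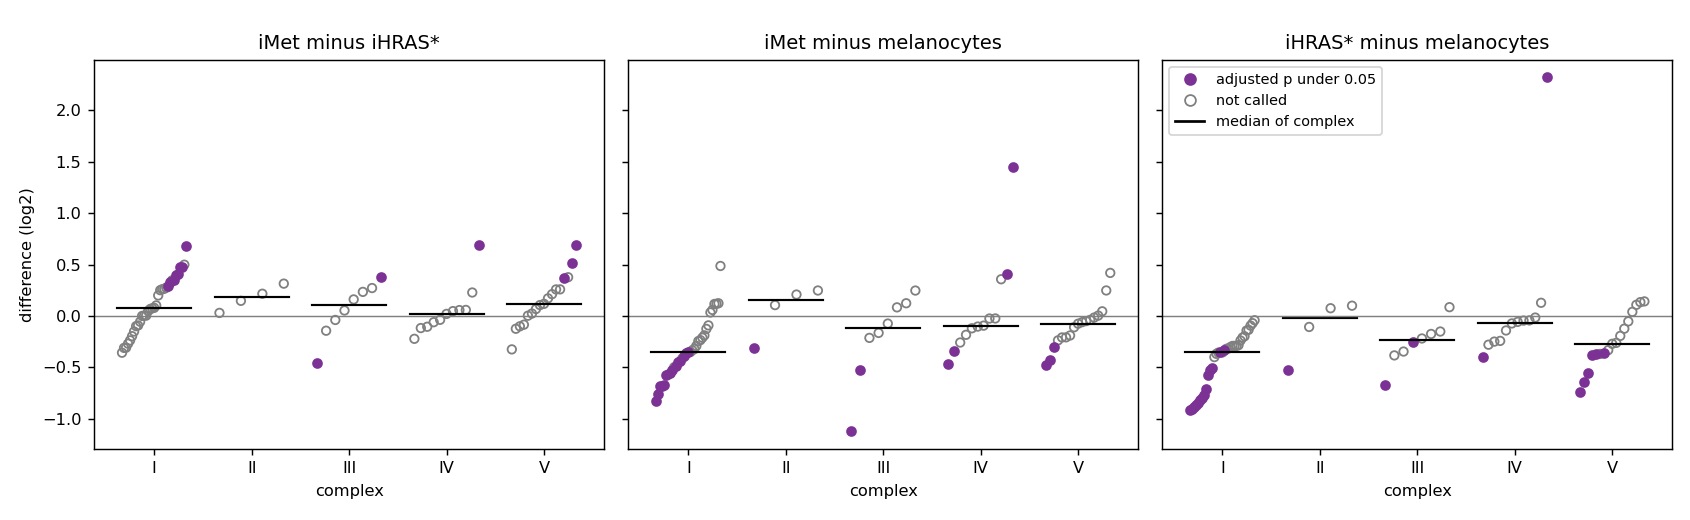
Difference in log2 signal (vertical axis) of each tested member, ordered within complexes I to V (horizontal axis), for iMet minus iHRAS*, iMet minus melanocytes and iHRAS* minus melanocytes; filled points were called by limma at an adjusted p under 0.05 and bars mark the median of each complex. In complex I, 14 filled points lie below 0 in each melanocyte panel and 8 lie above 0 between the tumour models.

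Between the tumour models, the question set by the design, 13 of 73 tested members rose in iMet tumours and 1 fell. Of all genes tested, 11.2% were called higher and 9.7% lower, 20.9% in all. The share of members called higher was 17.8% and that called lower 1.37%. The median difference of the members was 0.08, against 0.03 for all genes. The ranges of the groups did not overlap for 7 members that were higher and 0 that were lower, against 5.83% and 4.89% of all genes.

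The calls were 8 of 33 genes higher in complex I, 1 of 8 higher and 1 lower in complex III, 1 of 11 higher in complex IV and 3 of 17 higher in complex V. In complex II 0 of 4 were called by limma, with differences from 0.03 to 0.31, and 2 were higher at an unadjusted p under 0.05. The share of all genes at that unadjusted level was not counted. The count of 13 was not stable: it was 6 without iMet array 1, 6 without iMet array 3, 7 without iMet array 5 and 8 without iHRAS* array 5, and between 9 and 13 without any other array. Without single arrays, 8.08% to 12.1% of all genes were called higher. The count was 4 when arrays were centred on their medians, beside 10.1% of all genes called higher. On the deposited values it was 23, where the median of all genes was itself 0.23 and 22% of all genes were called higher and 5.47% lower. The mean of 11 cell division markers was 9.87 to 10.4 on iMet arrays, against 8.47 to 9.40 on iHRAS* arrays, and 10 of the 11 rose. Of 7 endothelial markers 6 rose and of 10 keratinocyte markers 4 fell in the same comparison. Of 5 melanocyte lineage markers tested 2 fell, and Sox10 was at 6.08 to 7.66 on iMet arrays, against 9.45 to 11.4 on iHRAS* arrays, with ranges apart. The part of these differences in the result was not tested.

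Atp5j kept its call in all 24 settings tried. The iMet arrays had 11.29, 11.49 and 11.61 as lowest, median and highest value, against 10.47, 11.05 and 11.11 on iHRAS* arrays. All 6 iMet arrays lay above all 6 iHRAS* arrays. The difference was 0.52 ± 0.12, or 1.43-fold (limma, adjusted p = 0.0119).

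Cox6c was at 12.24, 12.90 and 13.10 on iMet arrays, against 11.93, 12.09 and 12.38 on iHRAS* arrays. All iMet arrays but tumour 6, at 12.24, lay above the iHRAS* range. The difference of 0.69 ± 0.15, or 1.61-fold (limma, adjusted p = 0.00683), was 0.47 with an adjusted p of 0.177 when arrays were centred on their medians, and was called in the other 23 settings. Atp5g2, also 1.61-fold higher (0.69 ± 0.18, limma, adjusted p = 0.0185), was at 11.51, 12.27 and 12.45 on iMet arrays, against 11.21, 11.37 and 12.02 on iHRAS* arrays. Those ranges overlapped.

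Uqcrb, a ubiquinone-binding subunit of complex III, was at 13.004, 13.13 and 13.16 on iMet arrays, against 12.58, 12.72 and 12.89 on iHRAS* arrays. The ranges were apart, by 0.38 ± 0.08 (limma, adjusted p = 0.00739). Its difference was 0.09 when arrays were centred on their medians (adjusted p = 0.76). Uqcrq moved the other way, by -0.45 ± 0.15 (limma, adjusted p = 0.0469), and kept that call in 7 of 23 settings.

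Within complex I, Ndufb6 rose by 0.40 ± 0.09, Ndufb3 by 0.47 ± 0.12 and Ndufa7 by 0.29 ± 0.09 with ranges apart (limma, adjusted p = 0.00884, 0.0135 and 0.0382). Ndufb6 was not called when all probe sets of a gene were averaged (adjusted p = 0.131), and its other probe set differed by 0.06. The Ndufa7 call was kept in 9 of 24 settings. Ndufa6, a subunit of the matrix arm, had the largest value of complex I at 0.68 ± 0.19 (limma, adjusted p = 0.0251). Its lowest, median and highest signals were 10.07, 10.64 and 11.05 on iMet arrays, against 9.41, 9.92 and 10.43 on iHRAS* arrays, with overlap. Of the core subunits, Ndufs1 rose by 0.33 (limma, adjusted p = 0.047), which it kept in 6 of 24 settings, and the other 5 differed by -0.09 to 0.10 without passing the test.

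The promoters of 4 members that rose in iMet over iHRAS* tumours are shown because they hold motifs of factors known to act on respiratory chain genes. Each stretch runs from 130 bases before to 30 bases after an annotated start, from RefSeq on GRCm38.p6, and reads 5′ to 3′ along the gene. Ndufa5, Atp5c1 and Atp5j each had 2 annotated starts. For Atp5c1 and Atp5j the start shown was chosen because its window held the motif. The window of their other start had no such match. For Ndufa5 both windows held the motif, at -190 and -26 from their starts, and the window with -26 is shown. Capitals mark the core of the NRF1 motif in the first 3 and the YY1 motif in the last. Their letters, searched on both strands, are those in capitals, with any base allowed at the sixth place of the NRF1 core. All 4 lie on the minus strand, at chr6:24527661-24527820, chr2:10080403-10080562, chr15:102671018-102671177 and chr16:84834947-84835106 in the order shown.
Ndufa5: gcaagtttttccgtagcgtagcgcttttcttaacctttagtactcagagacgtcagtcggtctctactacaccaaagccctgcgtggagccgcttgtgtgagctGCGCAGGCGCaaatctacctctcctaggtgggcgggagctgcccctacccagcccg
Atp5c1: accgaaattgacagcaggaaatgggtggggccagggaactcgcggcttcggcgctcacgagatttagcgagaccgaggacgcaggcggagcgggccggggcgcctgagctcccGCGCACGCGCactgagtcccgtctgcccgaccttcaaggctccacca
Atp5g2: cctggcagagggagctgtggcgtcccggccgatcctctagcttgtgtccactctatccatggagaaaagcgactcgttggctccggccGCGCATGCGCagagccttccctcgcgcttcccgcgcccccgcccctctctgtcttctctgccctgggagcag
Atp5j: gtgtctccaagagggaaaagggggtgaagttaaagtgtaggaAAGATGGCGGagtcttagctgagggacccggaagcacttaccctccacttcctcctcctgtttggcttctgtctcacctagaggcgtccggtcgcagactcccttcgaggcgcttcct

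Windows of 300 bases, from 250 before to 50 after a start, were held for 64 of the 78 members and for 27025 genes in all. The NRF1 core was found in 14 of the 64 members (21.9%), against 5.19% of all genes. Of these 14, Ndufa5, Ndufa6, Atp5c1 and Atp5g2 rose in iMet over iHRAS* tumours. The others did not pass that test: Atp5g3, Atp5h, Atp5k, Atp5o, Cox6a1, Ndufa8, Ndufs5, Sdha, Sdhd and Uqcrc1. Atp5j, Ndufb6 and Ndufs4 also rose, and their windows held no NRF1 core. The Ndufa5 call was kept in 15 of 24 settings and the Atp5c1 call in 18 of 24. With the mean of all probe sets, Ndufa5, Atp5c1 and Atp5g2 lost their calls. The ETS core (CCGGAAGT) was found in 7.81% of members and 4.31% of genes, the YY1 core in 6.25% and 1.0%, the ERR site (TCAAGGTCA) in 3.12% and 0.47%, and the Sp1 core (GGGCGG), also on both strands, in 40.6% and 38.2%. The motifs are short and can overlap, and a match describes only the letters of the window.

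Cox8b and Cox7a1, tissue-restricted isoforms of complex IV, lay above log2 6.21 on 1 of the 16 arrays. On iMet tumour 5, Cox8b, the form of muscle and brown fat, was at 9.59, and on the other 5 iMet arrays it was between 1.85 and 5.41. It was at 1.44 to 5.10 on iHRAS* arrays and at 1.77 to 3.78 on melanocyte arrays. Cox7a1, another such form, was at 7.76 on iMet tumour 5, and all the other arrays were below 6. Cox6a2, the muscle form of its subunit, was at 7.52 on iMet tumour 5, against 5.75 to 6.67 on the other iMet arrays, 5.90 to 6.57 on iHRAS* arrays and 5.65 to 6.48 on melanocyte arrays. These 3 isoforms were highest on the same array.

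Of 4 brown fat markers, 2 were also highest on that array. Ucp1, the uncoupling protein of brown fat, was at 10.15 on iMet tumour 5 and between 0.63 and 4.43 on the other 15 arrays. Cidea, a lipid droplet protein of brown fat, was at 9.30 there and at most 6.82 elsewhere. The list averaged 8.50 on iMet tumour 5, against 3.85 to 6.65 on the other iMet arrays, 3.97 to 5.88 on iHRAS* arrays and 3.28 to 3.93 on melanocyte arrays. The other members of that list did not single out this array: Dio2 was at 7.66 there and up to 12.8 on other iMet arrays, and Elovl3 was at 6.89 there and up to 8.32 on iHRAS* arrays. The 5 adipocyte markers averaged 9.07 on iMet tumour 5, against 4.55 to 6.64 on the other iMet arrays, 3.85 to 6.06 on iHRAS* arrays and 3.55 to 4.62 on melanocyte arrays. The 13 skeletal muscle markers averaged 8.92 there, but also 8.22 on iMet tumour 1, where Cox8b was at 4.70.

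Among the 73 members tested in all comparisons, iMet tumour 5 was the highest of its group for 48 and iMet tumour 6 the lowest for 41. The part of brown fat or muscle RNA in those levels was not tested. Without iMet tumour 5, the median difference of the members from iHRAS* tumours was 0.03 in place of 0.08. The iMet counts against melanocytes without it were 26 lower and 1 higher, beside 18% and 14.9% of all genes.

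**Figure D4:**
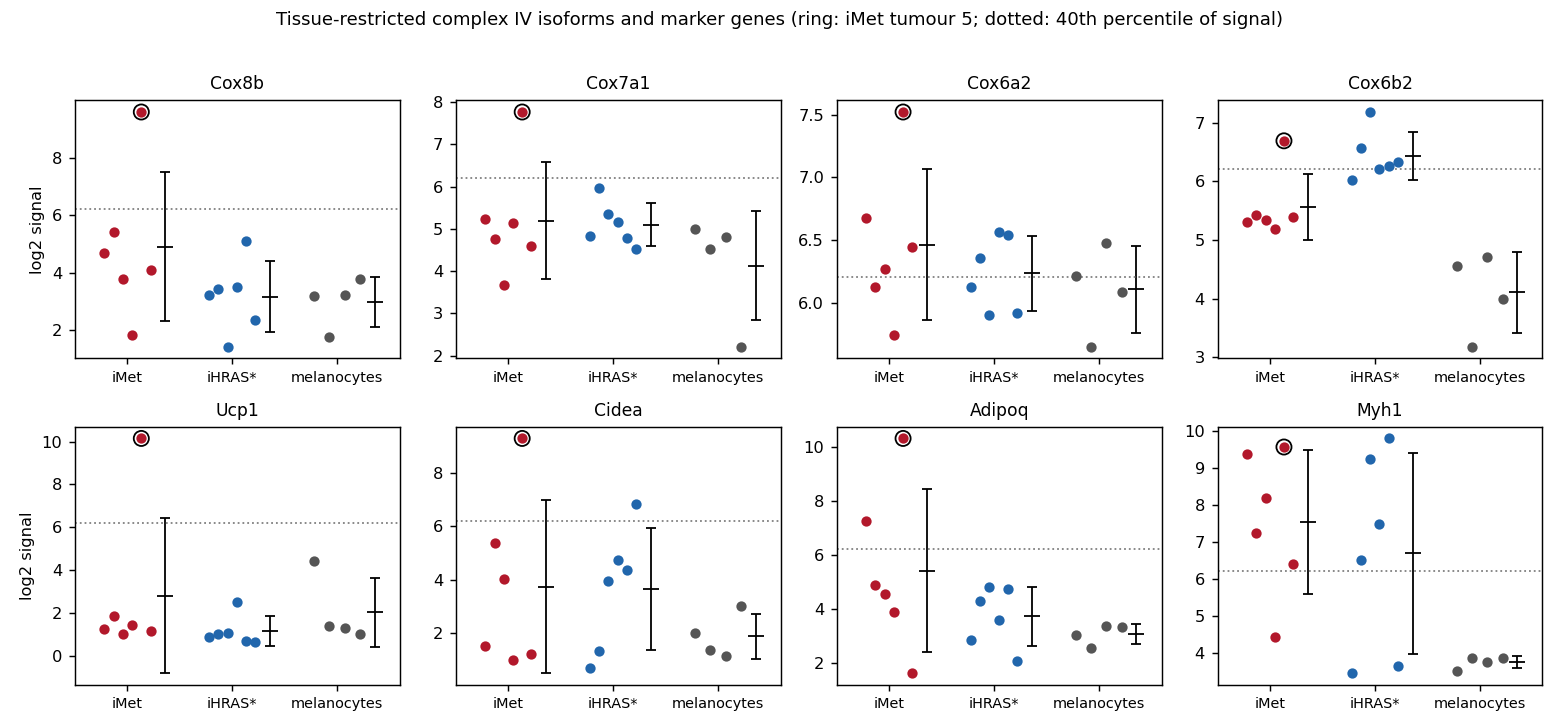
Log2 signal (vertical axes, each with its own range) of 4 tissue-restricted complex IV isoforms (upper row) and of 3 fat markers and the muscle gene Myh1 (lower row) on 6 iMet, 6 iHRAS* and 4 melanocyte arrays; bars give the mean and SD, the ring marks iMet tumour 5 and the dotted line log2 6.21. Cox8b, Cox7a1, Ucp1, Cidea and Adipoq are highest on iMet tumour 5, the iHRAS* arrays of Cox6b2 lie above its melanocyte arrays, which are all under the dotted line, and Myh1 is high on several tumour arrays.

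Cox6b2, known as the testis form of its subunit, was the only member called higher in iHRAS* tumours than in melanocytes. The 6 iHRAS* arrays had 6.02, 6.57, 7.19, 6.21, 6.26 and 6.34, against 4.55, 3.18, 4.71 and 4.00 on the melanocyte arrays. The iHRAS* arrays lay wholly above the melanocyte arrays. All 4 melanocyte values lay below log2 6.21, where signals are poorly measured. Set against that level, the mean iHRAS* signal was at least 1.17-fold higher, a bound that was not itself tested. The limma call (adjusted p = 0.000105) belongs to the difference on the measured values. The gene passed the filter on low values through the iHRAS* group, with 4 of 6 arrays above that level, so a difference had to follow and its call supports nothing further. The iMet arrays were at 5.19 to 6.69, with 1 of 6 above log2 6.21. Since the means of iMet tumours and of melanocytes both lay below that level, no fold is given and the call between them is not read as a difference.

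Cox6b2 was too dim to enter the fit between the tumour models. Its means were 5.56 ± 0.56 in iMet and 6.43 ± 0.41 in iHRAS* tumours (SD, n = 6 each), with overlapping ranges around log2 6.21. Cox7c was at 6.15 ± 0.31 in iMet and 5.65 ± 0.08 in iHRAS* tumours (SD, n = 6 each). Both Cox7c probe sets lay near log2 6.21 or below, so the level of this widely expressed subunit is poorly measured here. Cox4i2, a form of lung and low oxygen, was at 6.11, 5.93 and 6.16 on average in iMet tumours, iHRAS* tumours and melanocytes. Cox8c, another testis form, was at 7.76 to 8.40 on all 16 arrays, and no comparison called it.

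The genes around the respiratory chain were counted by lists chosen with earlier results of these data known. Of 32 assembly factors, which build the complexes, 14 fell and 0 rose in iMet tumours and 17 fell and 0 rose in iHRAS* tumours against melanocytes, with medians of -0.32 and -0.47. These are 43.8% and 53.1% of the list called lower, beside 18.7% and 21.3% of all genes, and no test of any list was made. Coa7, which acts on complex IV assembly, fell by 0.79 and 0.82 (limma, adjusted p = 0.000533 and 0.000395). Sdhaf1, the assembly factor of complex II, fell by 0.79 in iMet tumours (limma, adjusted p = 0.00161), and Ndufaf5, of complex I, by 0.82 in iHRAS* tumours (limma, adjusted p = 0.000228). Between the tumour models 5 of 32 (15.6%) rose in iMet tumours and 1 fell, beside 11.2% and 9.7% of all genes.

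Of 74 proteins of the mitochondrial ribosome, which translates the mitochondrially encoded subunits, 18 (24.3%) fell and 1 rose in iMet tumours against melanocytes, beside 18.7% of all genes called lower. In iHRAS* tumours 38 (51.4%) fell and 0 rose, with a median of -0.39, beside 21.3% of all genes called lower. Mrpl16 differed by -0.79 in iMet and -1.10 in iHRAS* tumours (limma, adjusted p = 0.000136 and 6.96e-06). Between the models 13 of 74 (17.6%) rose in iMet tumours and 1 fell, beside 11.2% and 9.7% of all genes, with Mrps6 highest at 1.21 (limma, adjusted p = 0.00114).

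The citrate cycle supplies the NADH and succinate. Of its 15 genes, 1 fell (6.67%) and 2 rose (13.3%) in iMet tumours against melanocytes, beside 18.7% and 16.4% of all genes. In iHRAS* tumours 3 fell (20%) and 1 rose (6.67%), beside 21.3% and 18.1%. Suclg2, a subunit of succinyl-CoA ligase, was higher in iMet than in iHRAS* tumours by 0.99 (limma, adjusted p = 0.00266). Of 12 electron carriers and donors, 5 fell (41.7%) and 0 rose in iMet tumours and 6 fell (50%) and 1 rose in iHRAS* tumours, beside the same 18.7% and 21.3% of all genes called lower. Coq3, an enzyme of ubiquinone synthesis, was at -0.83 and -1.17 (limma, adjusted p = 0.000627 and 3.5e-05). Of 6 carriers and channels for ADP, ATP and phosphate, 0 were called in iMet tumours against melanocytes, beside 35.1% of all genes. In iHRAS* tumours 1 fell (16.7%) and 0 rose, beside 21.3% and 18.1% of all genes. That gene was Slc25a4, an ADP/ATP carrier, which fell by 0.43 (limma, adjusted p = 0.00384).

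Of 11 regulators of mitochondrial gene expression that were tested, 3 rose and 3 fell (27.3% each) in iMet tumours against melanocytes, beside 16.4% and 18.7% of all genes. In iHRAS* tumours 1 rose (9.09%) and 2 fell (18.2%), beside 18.1% and 21.3%. Nrf1, the factor that binds the NRF1 motif, rose by 0.73 in iMet and 0.79 in iHRAS* tumours (limma, adjusted p = 0.0014 and 0.000729). Tfb1m, a methyltransferase of the mitochondrial ribosomal RNA, fell by 0.59 and 0.73 (limma, adjusted p = 0.00643 and 0.00138). Between the models Esrra, an orphan receptor that acts on oxidative genes, fell by 0.93 in iMet tumours (limma, adjusted p = 0.00258), and Polrmt, the mitochondrial RNA polymerase, fell by 0.38 (limma, adjusted p = 0.0119).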

How the data were processed

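RNA was hybridised to Affymetrix M430A_2 arrays after labelling through a T7 oligo-dT primer, per the labels. The deposited values are log2 signals per probe set, from -4.07 to 14.5, and the sources used here do not give the authors' normalization. Their array medians differed by 0.72, over the limit of 0.3 set for this, so arrays were quantile-normalized. Of 22690 probe sets, 64 controls were left out, 20380 had 1 symbol, 691 several and 1555 none, and 7 probe sets with shared symbols that match the rule were left out. Each gene was represented by its probe set of highest mean. Genes above log2 6.21 on at least as many arrays of the fit as its smallest group holds were tested with limma 3.58.1 in R 4.3.3 (lmFit, eBayes, Benjamini-Hochberg over all genes tested). In the comparisons with melanocytes, arrays of the group not compared also counted, as for Cox6b2 in iMet tumours. The 12 tumour arrays were fitted alone for iMet against iHRAS*, and all 16 arrays for the comparisons with melanocytes. Exact permutation tests planned for members too dim to test are not reported, since such signals are poorly measured. Sums and figures were made in Python 3.11.15.

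The members, marker lists and gene lists were chosen with earlier results of these data known. Named in full were, per comparison and complex, up to 4 called members with the largest differences and ranges apart, the tissue-restricted isoforms with their partners, the complex I core, the Sdh subunits, and up to 3 genes per related list. Called members outside these were added after their values were seen. Promoters are from RefSeq (GRCm38.p6). The tests were checked on simulated data. Alternatives covered scaling, the dim filter, the choice of probe set, the model and leaving out arrays. No batch is given in the labels, and the number of arrays limits the precision.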

Additional observations from a re-analysis of the deposited data

Results flagged for a closer look

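Within each group the highest and the lowest array of every member and of each complex mean were compared with the others by Dixon's test. This gave 19 values far from the rest among 252 tests, where chance alone gives about 1 in 20. There were 9 on iMet arrays, 5 on iHRAS* arrays and 5 on melanocyte arrays.

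On iMet tumour 5, the array where Ucp1 and Cidea were highest, Atp5h was at 11.6 (others 11.28 to 11.39), Atp5j2 at 12.4 (others 11.20 to 11.64), Atp5k at 11.8 (others 10.96 to 11.24) and Cox6b2 at 6.69 (others 5.19 to 5.42). On iMet tumour 6, Cox6c was at 12.2 (others 12.85 to 13.10), Ndufa8 at 10.06 (others 10.38 to 10.47), Ndufb7 at 9.48 (others 9.87 to 10.10) and Sdhc at 10.54 (others 10.38 to 10.42). Cox4i2 was at 6.91 on iMet tumour 2 (others 5.81 to 6.09).

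On iHRAS* arrays, Atp5g1 was at 10.4 on array 2 (others 9.74 to 9.97), and Cox5a was at 12.5 there (others 11.91 to 12.11). Ndufs7 was at 9.86 on array 4 (others 9.58 to 9.68), Sdha at 9.89 on array 3 (others 10.14 to 10.28) and Uqcrc1 at 10.92 on array 1 (others 11.35 to 11.39).

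On melanocyte array 4, Cox5b was at 11.97 (others 12.26 to 12.29), Cox7a1 at 2.21 (others 4.52 to 4.99) and Cox7a2l at 11.2 (others 10.30 to 10.44). On melanocyte array 2, Atp5a1 was at 12.7 (others 12.46 to 12.48), and the mean over complex I members was 10.56 (others 10.51).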

How the results depend on the processing

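Between the tumour models, the 13 members higher in iMet became 23 on deposited values, 4 with arrays centred on their medians, 6 with the mean of all probe sets, 4 without iHRAS* arrays 5 and 6 and 8 without iMet arrays 5 and 6, and 6 to 13 without single arrays. In the same order, 22%, 10.1%, 10.9%, 8.44% and 8.1% of all genes were called higher, and 8.08% to 12.1% without single arrays. The 1 lower member became 0 on deposited values, without the dim filter and without iHRAS* arrays 3 and 4 or 5 and 6, 2 with limma-trend, with all 16 arrays in 1 fit or without iMet arrays 5 and 6, 3 with each probe set on its own, and 0 to 2 without single arrays. The median of 0.08 became 0.26 on deposited values, where that of all genes was 0.23, and 0.03 to 0.12 without single arrays. For iMet against melanocytes, the 2 higher members became 1 with median centring, the 60th percentile filter or without melanocyte arrays 1 and 3 or 2 and 4, 4 with the mean of all probe sets, 5 with array weights, 0 with only the compared groups or without iHRAS* arrays 5 and 6, and 1 to 4 without single arrays. The 22 lower became 12 without melanocyte arrays 1 and 3 or 2 and 4, and 13 to 26 without single arrays. Of all genes, 13% and 12% were called lower without these pairs, and 14% to 20.2% without single arrays. The median of -0.20 became -0.45 with median centring, where that of all genes was -0.22, and -0.24 to -0.15 without single arrays. For iHRAS* against melanocytes, the 1 higher member became 0 with the 60th percentile filter and 0 without iHRAS* arrays 5 and 6. Both settings left Cox6b2 untested. The count became 3 with each probe set on its own. The 24 lower became 40 on deposited values, and 18 to 27 without single arrays. Of all genes, 27.9% were called lower on deposited values, in place of 21.3%, and 16.4% to 22.7% without single arrays. The median of -0.29 became -0.45 on deposited values, -0.47 with median centring, -0.22 without iHRAS* arrays 5 and 6, and -0.31 to -0.25 without single arrays. The median of all genes was -0.21 on deposited values and -0.23 with median centring, in place of -0.09. Atp5c1 in iHRAS* tumours turned to 0.16 (limma, adjusted p = 0.403) with the mean of all probe sets. Pairs of arrays to leave out were chosen after seeing the data. Kept in every setting that tested the gene were 1 of 14, 7 of 24 and 12 of 25 calls in the 3 comparisons. The 12 include Cox6b2, which was tested in 28 of the 30 settings. The causes were not tested.

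Samples share replicate numbers in the labels, but same-numbered samples correlated by -0.22 to 0.11 in their deviations, so the numbers were not taken to pair them. With the replicate number as a block, iMet against iHRAS* gave 4 higher and 0 lower, iMet against melanocytes 2 higher and 11 lower, and iHRAS* against melanocytes 17 lower with a median of -0.25. Of all genes, 7.71% were called higher and 7.01% lower in the first comparison, and 13.7% and 14% in the second. In the third, 17.2% of all genes were called lower, with a median of -0.08.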
